A study of Drosophila melanogaster with 4 samples.

Results

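Chromosome 4 of Drosophila melanogaster held 100 of the 6560 clusters of Sfmbt enrichment listed for ChIP replicate 1, 118 of the 6508 listed for replicate 2 and 105 of the 8434 of a list that combines both replicates. These clusters were taken by their chromosome name alone, and all of them are described here. The study mapped the Polycomb group protein Sfmbt (dSFMBT in the labels) by ChIP-seq, sequencing the DNA that the antibody Q2642 pulled down from nuclei of heads. The flies were adults of mixed age of the wild-type strain Oregon-R. The 4 samples were 2 ChIP replicates and 2 inputs, which are chromatin samples without the antibody, and 1 input belonged to each ChIP. The labels leave unsaid whether each ChIP replicate had its own batch of fly heads, and an SD here may therefore measure technical spread only. Each cluster has a start, an end and a log2 score set by the authors, and coordinates are those of FlyBase release 5. The number of reads behind a cluster is unknown.

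Sfmbt belongs to the Pho repressive complex, in which Pho binds DNA and Sfmbt contributes MBT repeats that bind lysines carrying few methyl groups on histone tails. The complex is known for its place at Polycomb response elements, the short sequences from which Polycomb repression of developmental genes is organised. Chromosome 4 is the smallest chromosome of the fly. Much of it carries the heterochromatin protein HP1a and methylated histone H3, yet its genes are transcribed, and the chromosome-specific protein POF binds along them. Its genes include ey and toy, the Pax6 homologues of eye development, ci, the transcription factor of Hedgehog signalling, and pan, that of Wnt signalling. RefSeq's gene table of release 6 places 114 genes on chromosome 4, of which 80 are protein-coding. The positions of release 6 and release 5 differ, so no cluster is assigned to a gene here, and no sequence is shown.

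Sfmbt clusters covered close to 45 in every 100 bases of chromosome 4, in blocks separated by empty stretches. Replicate 1 covered 45.6% and replicate 2 covered 44.0% of its 1351857 bp, a mean of 44.8% ± 1.11 (SD, n = 2). The next most covered main arm was 2R in both replicates, with 16.5% in replicate 1 and 16.2% in replicate 2. Chromosome 4 was thus covered 2.77 times as much as the next arm in replicate 1 and 2.71 times in replicate 2, a gap larger than the spread between replicates. In the combined list these shares were 56.1% on chromosome 4 and 23.04% on X. No test was made of this difference, because 1 chromosome was measured in 2 samples of 1 group.

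**Figure D1:**
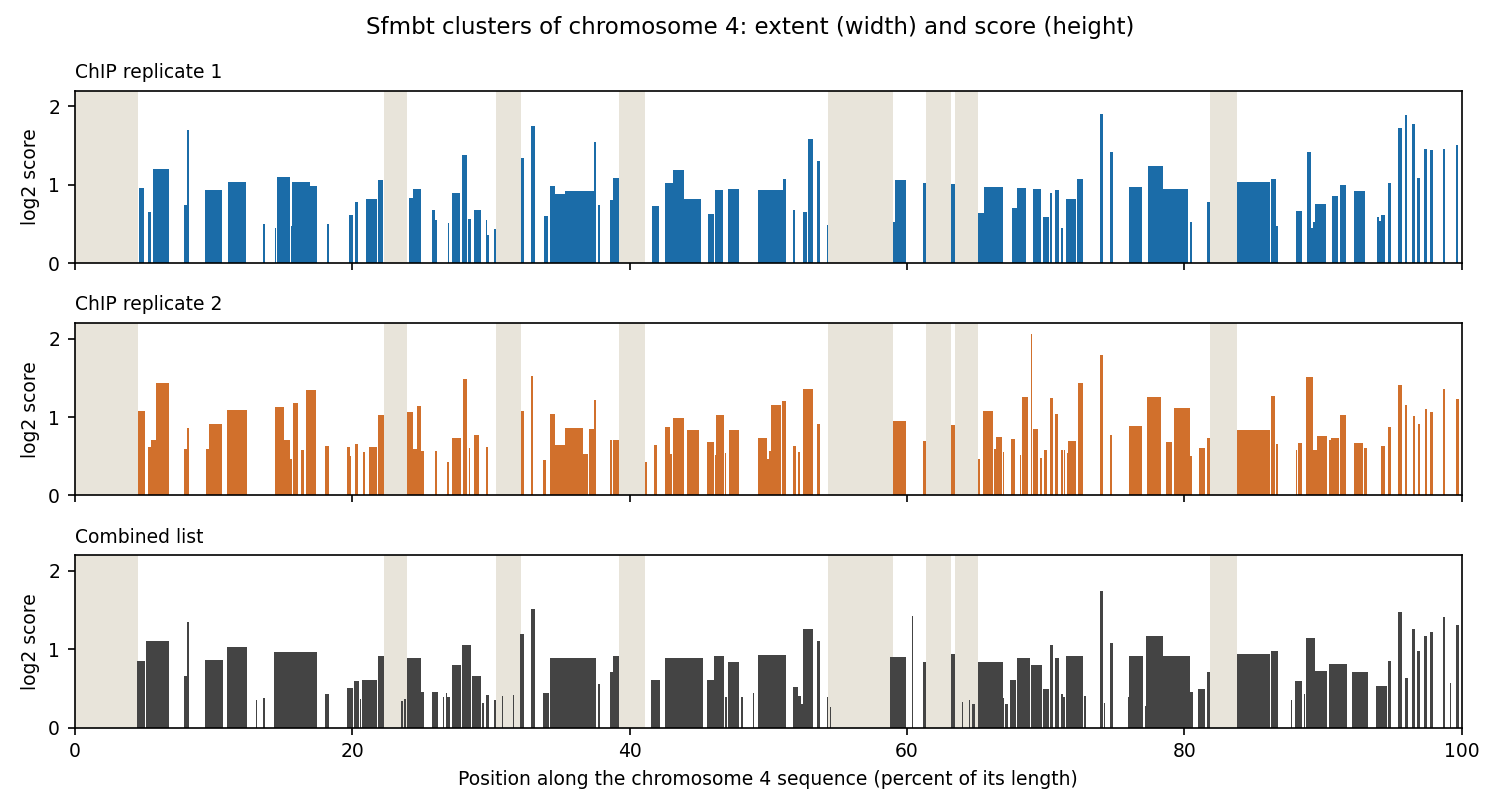
Each bar is 1 Sfmbt cluster of chromosome 4, drawn to scale by its width (position in percent of the chromosome's 1351857 bp) and its log2 score, for ChIP replicate 1 (blue), ChIP replicate 2 (orange) and the combined list (grey). The shaded stretches are the 8 of at least 20 kb that no cluster of either replicate reached. The narrow bars at the right end are the distal run of clusters.

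The replicates covered largely the same bases. Both lists covered 535357 bp, or 39.6% of the chromosome. Replicate 1 alone covered 5.97%, replicate 2 alone covered 4.41%, and 50.02% lay in neither. Of the bases covered in replicate 1, 86.9% were also covered in replicate 2, and in the other direction this share was 89.98%. The bases in both made up 79.2% of those in either on chromosome 4, against 74.0% on X and 77.8% on 3R, the lowest and highest of the other arms. The denser coverage of chromosome 4 was not allowed for in this comparison. The edges of clusters matched less closely. The lists held 54 pairs of clusters with a single partner each way, which was 54.0% of the clusters of replicate 1 and 45.8% of those of replicate 2. On the other arms such pairs held 76.9% to 86.5% of a list. In the pairs of chromosome 4 the edges lay a median of 165.5 bp apart, against 74 bp on 2L to 101 bp on X. Clusters of chromosome 4 were also wider, with a median of 3743 bp in replicate 1 and 3342 bp in replicate 2. On the other arms the median widths were 2173 to 2367 bp, and width was not allowed for.

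Windows of 100 kb along the chromosome differed far more from each other than the replicates did within a window. The fullest window was 600001 to 700000, with 62.7% covered in replicate 1 and 59.2% in replicate 2 (mean 60.9% ± 2.47, SD, n = 2). The window directly after it, 700001 to 800000, was the emptiest, with 17.2% in replicate 1 and 19.9% in replicate 2 (18.5% ± 1.89). The first window had 24.6% ± 2.53 and the last, which is 51857 bp long, had 27.1% ± 1.51. The other 10 windows lay between 34.6% ± 2.83 at 800001 to 900000 and 58.5% ± 0.42 at 1200001 to 1300000. The replicates differed most at 500001 to 600000, where replicate 1 covered 50.1% and replicate 2 covered 41.0%. In the window 900001 to 1000000 neither replicate had a wide cluster centred there, although replicate 1 had 9 clusters there and replicate 2 had 16. In the combined list the window held 3 wide clusters and the highest covered share of any window, 75.5%, against 55.9% in replicate 1 and 52.3% in replicate 2. Across the 14 windows the shares of the replicates had a Pearson r of 0.971 and a Spearman rho of 0.969, given as a description, since windows share their libraries.

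**Figure D2:**
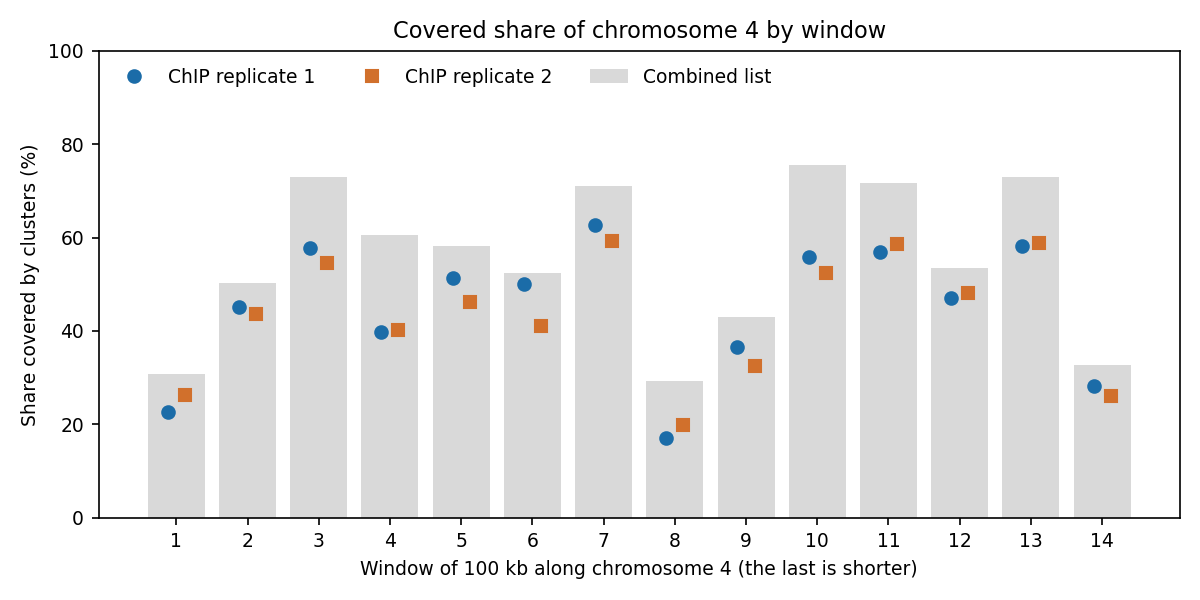
Share of each 100 kb window of chromosome 4 covered by Sfmbt clusters, with the combined list as grey bars and the ChIP replicates as points. The replicates sit close together in each window, between 17.2% and 62.7%, and the combined list lies above both in every one of the 14 windows.

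Uncovered stretches set the blocks apart, and the 2 longest were at the same places in both replicates. There were 18 stretches of at least 10 kb that no cluster of either replicate reached, and they made up 31.9% of the chromosome and 63.7% of all bases uncovered in both lists. The longest ran from 734564 to 797216, over 62.7 kb. The combined list had 1 cluster wholly inside it, with a score of 0.27. The second was the start of the sequence, the end next to the centromere, where the first 61789 bp had no replicate cluster and the combined list began at 61205. The next were 1106596 to 1132854 (26.3 kb), 530364 to 556262 (25.9 kb) and 410522 to 435190 (24.7 kb). The replicates ordered the shorter ones differently. The third longest of replicate 1, 530364 to 562867 (32.5 kb), was cut short by a cluster of replicate 2, and the fourth longest of replicate 2, 167488 to 194778 (27.3 kb), was broken by a cluster of replicate 1. At the far end the last cluster stopped at 1348440 in replicate 1 and 1348755 in replicate 2. Long gaps were not particular to chromosome 4. Its longest gap between clusters was 63266 bp in replicate 1 and 70936 bp in replicate 2. On the other, longer arms the longest gap was 220478 to 387466 bp. Whether reads could be mapped in the uncovered stretches was not tested.

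Between neighbouring clusters, short gaps were common. The median gap was 3424 bp in replicate 1 and 2644 bp in replicate 2 on chromosome 4, against 4458.5 to 7367.5 bp on the other arms. Gaps of at most 1 kb made up 28.3% of all gaps in replicate 1 and 31.6% in replicate 2, against 11.1% to 16.2% on the other arms. With gaps of up to 5 kb bridged, the 100 clusters of replicate 1 became 45 blocks and the 118 of replicate 2 became 39. The longest block in replicate 1 then ran from 457877 to 512148 (54.3 kb, 7 clusters, 91.9% covered), and replicate 2 had a block from 456420 to 508422 over the same place (52.003 kb, 7 clusters, 88.7% covered). The longest in replicate 2 ran from 912563 to 982861 (70.3 kb, 14 clusters), where replicate 1 had a block from 933563 to 982892 (49.3 kb, 7 clusters). In the combined list the longest block reached 114.3 kb, from 871817 to 986126, with 15 clusters that covered 85.7% of it.

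Wide clusters, taken as those above 10 kb, carried much of the covered length. The combined list had 23 of them among its 105 clusters on chromosome 4 (21.9%), against 1.1% of its 8157 clusters over all 6 main arms. They held 62.5% of the bases covered in that list. In the replicates' own lists 19 of 100 clusters in replicate 1 and 12 of 118 in replicate 2 were wide, and they held 49.6% and 30.7% of the covered bases (mean 40.1% ± 13.4, SD, n = 2). On the other arms wide clusters held at most 3.96% of the covered bases in either replicate. With replicate gaps of up to 1 kb bridged, the share on chromosome 4 was 63.04%, and with the limit at 20 kb it was 9.21%. All 12 wide clusters of replicate 2 overlapped a wide cluster of replicate 1, and replicate 1's clusters covered 91.3% to 100.0% of each. Of the 19 of replicate 1, 12 overlapped a wide cluster of replicate 2, and 11 overlapped more than 1 cluster.

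The 8 combined clusters wider than 20 kb were spread over the chromosome. The widest, 463251 to 508482, spanned 45232 bp, of which replicate 1 covered 96.8% with 5 clusters and replicate 2 covered 94.98% with 6. Its mean score, weighted by length, was 0.95 in replicate 1 and 0.82 in replicate 2. The next, 194662 to 236287 (41626 bp), also fell into 5 clusters in replicate 1 and 6 in replicate 2, which covered 94.3% and 83.4% of it and scored 1.00 and 1.05. These 2 were the most divided clusters of the chromosome by the sum over both lists.

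The cluster at 1132771 to 1165326 (32556 bp) differed from them, since each replicate had it as a single cluster. Replicate 1 placed it at 1132855 to 1164983 with a score of 1.04 and replicate 2 at 1132862 to 1165038 with a score of 0.83, so the starts lay 7 bp apart and the ends 55 bp. It was the widest cluster of chromosome 4 in either replicate list.

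The remaining clusters above 20 kb were at 574963 to 612248, 665747 to 693181, 1060761 to 1086556, 880131 to 904747 and 69053 to 92096. Replicate 1 covered 92.5%, 98.5%, 93.7%, 96.8% and 79.0% of them in that order, with 3, 2, 1, 2 and 2 clusters. Replicate 2 covered 80.1%, 88.5%, 81.8%, 81.05% and 84.9%, with 4, 5, 2, 5 and 3 clusters. Replicate 1 thus covered more of the first 4 with fewer clusters, and replicate 2 covered more of the last. Their length-weighted scores lay between 0.89 and 1.14 in replicate 1 and between 0.85 and 1.17 in replicate 2.

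**Figure D3:**
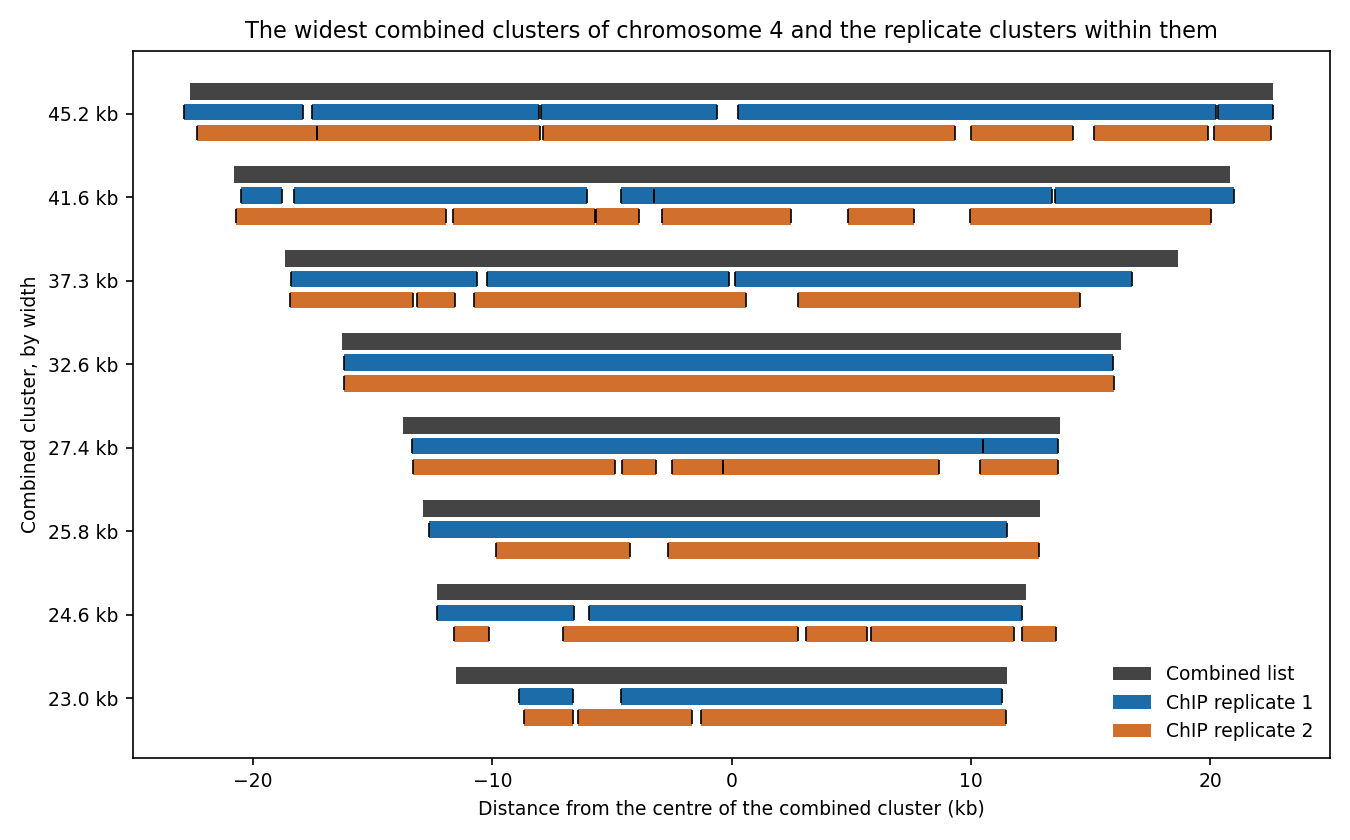
The 8 combined clusters of chromosome 4 wider than 20 kb (grey), each with the clusters of ChIP replicate 1 (blue) and ChIP replicate 2 (orange) that overlap it, by distance from the centre of the combined cluster in kb. Black ticks mark the ends of replicate clusters. The cluster of 32.6 kb is whole in both replicates, and those of 45.2 and 41.6 kb fall into 5 clusters in replicate 1 and 6 in replicate 2.

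Of the 23 wide combined clusters, 9 were split into 2 or more clusters in both replicates, 7 in replicate 2 alone and 2 in replicate 1 alone, and 5 were whole in both. The share split in both was 39.1% on chromosome 4, against 51.1% of the 90 wide clusters of all 6 main arms and 55.2% of the 67 on the other arms. Counted by replicate, 11 of the 23 were split in replicate 1 and 16 in replicate 2 on chromosome 4, against 46 and 44 of the 67 on the other arms. The wide clusters of chromosome 4 had a median of 16744 bp, against 12109 bp on the other arms. With replicate gaps of up to 1 kb bridged, 3 of the 9 were still split in both replicates. The replicates differed in how finely they divided these clusters. Replicate 1 had 42 clusters in them and replicate 2 had 61, with more in replicate 2 at 16 of the 23, more in replicate 1 at 2, and equal numbers at 5. On the other arms the totals were 137 in replicate 1 and 138 in replicate 2, with more in replicate 2 at 20 of the 67 and more in replicate 1 at 19.

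The gaps that divided the wide clusters were mostly short. Their median was 378 bp over 19 gaps in replicate 1 and 368.5 bp over 38 gaps in replicate 2, and 6 in each replicate were shorter than 100 bp. In replicate 1 a single base, 689953, separated a cluster with a score of 0.94 from one with a score of 1.07. Gaps of one replicate overlapped a gap of the other in 7 places, which were 36.8% of the gaps of replicate 1 and 18.4% of those of replicate 2. In each replicate 13 gaps lay at or within 500 bp of a gap of the other. One such place was at 1231733 to 1233441 in replicate 1 (1709 bp) and 1231909 to 1233481 in replicate 2 (1573 bp). In the widest cluster, both replicates had a gap at 477802 to 477889 in replicate 1 and 477860 to 477983 in replicate 2. On X, the arm with the most wide clusters outside chromosome 4, gaps of the other replicate were overlapped by 55.2% of the gaps of replicate 1 and 45.5% of those of replicate 2. On the other 4 arms these shares ran from 28.6% on 2L to 100.0% on 3L in replicate 1 and from 33.3% on 2L to 55.6% on 3R in replicate 2, over 2 to 24 gaps per arm. Chromosome 4 was thus below every other arm in replicate 2 but not in replicate 1.

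Wide clusters of chromosome 4 had moderate scores. The 19 of replicate 1 ranged from 0.75 to 1.24 around a median of 0.96, and the 12 of replicate 2 ranged from 0.83 to 1.44 around a median of 0.97. On the other main arms wide clusters had a median of 1.23 in replicate 1 (20 clusters) and 1.20 in replicate 2 (29 clusters). The narrow clusters of chromosome 4 had a median of 0.85 in replicate 1 and 0.71 in replicate 2, so wide clusters scored 0.11 and 0.26 higher (mean 0.19 ± 0.11, SD, n = 2). On X this difference was 0.28 in both replicates, and on 2L it was 0.60 in replicate 1 and 0.65 in replicate 2. With wide set at above 20 kb, which left 3 clusters in replicate 1 and 1 in replicate 2, the mean difference on chromosome 4 was 0.06. In replicates 1 and 2, clusters above 10 kb were 19.0% and 10.2% of those on chromosome 4, against 0.31% and 0.46% on the other arms. Over these unmatched widths, the relation of score to width was looser than elsewhere. Its Spearman rho across clusters was 0.380 in replicate 1 and 0.492 in replicate 2 on chromosome 4, against 0.735 to 0.783 on the other arms, as a description over clusters that share a library.

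Narrow clusters of chromosome 4 were not alike. Clusters of up to 2 kb scored low, with a median of 0.49 in replicate 1 (16 clusters) and 0.52 in replicate 2 (20 clusters), close to the 0.50 and 0.49 of the other arms. Clusters of 2 to 3 kb had a median of 1.20 in replicate 1 (22 clusters) and 0.70 in replicate 2 (34 clusters), against 0.85 and 0.83 on the other arms. Chromosome 4 was thus above the other arms in replicate 1 and below them in replicate 2 in this range of widths.

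**Figure D4:**
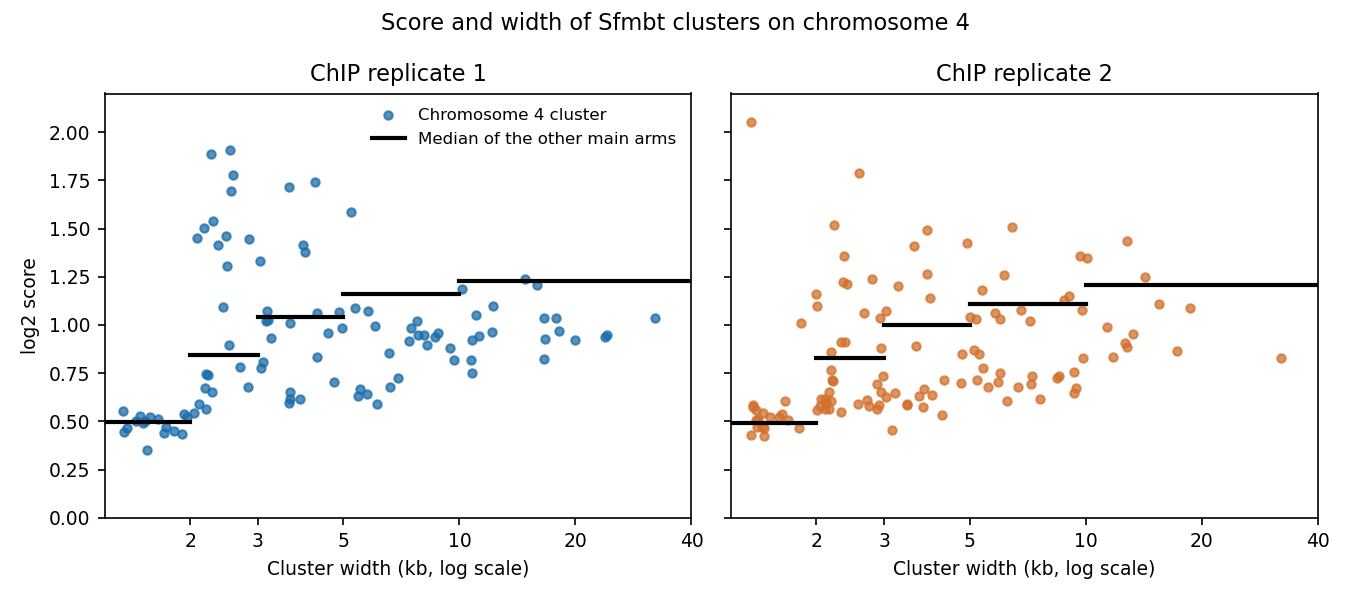
Score of each Sfmbt cluster of chromosome 4 by its width on a log scale, for ChIP replicate 1 (left) and ChIP replicate 2 (right). Black lines are the median scores of clusters of the other main arms in 5 ranges of width. Above 10 kb the clusters of chromosome 4 lie mostly below the line, at medians of 0.96 and 0.97 against 1.23 and 1.20.

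The high coverage of chromosome 4 was made of clusters of moderate score. Counting only clusters with a score of at least 0.75, it was covered to 38.2% in replicate 1 and 28.3% in replicate 2, against 12.9% and 13.5% of X, the next arm. At a score of at least 1.0 the shares were 16.6% and 16.0% on chromosome 4 and 8.67% and 8.71% on X, ratios of 1.92 and 1.84. At a score of at least 1.25 they were 3.75% and 5.17% on chromosome 4 and 4.07% and 3.98% on X. The ratio there was 0.92 in replicate 1 and 1.30 in replicate 2, so chromosome 4 was no longer above X in both. At a score of at least 1.5 the order was the other way round in each replicate, with 2.03% of chromosome 4 and 1.25% of X in replicate 1 and 0.93% of chromosome 4 and 1.14% of X in replicate 2. These shares rest on 9 clusters of chromosome 4 in replicate 1 and 4 in replicate 2. In the combined list, whose scores may be on another scale, the ratio was 2.81 at 0.75, 1.03 at 1.0, 0.68 at 1.25 and 0.63 at 1.5.

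**Figure D5:**
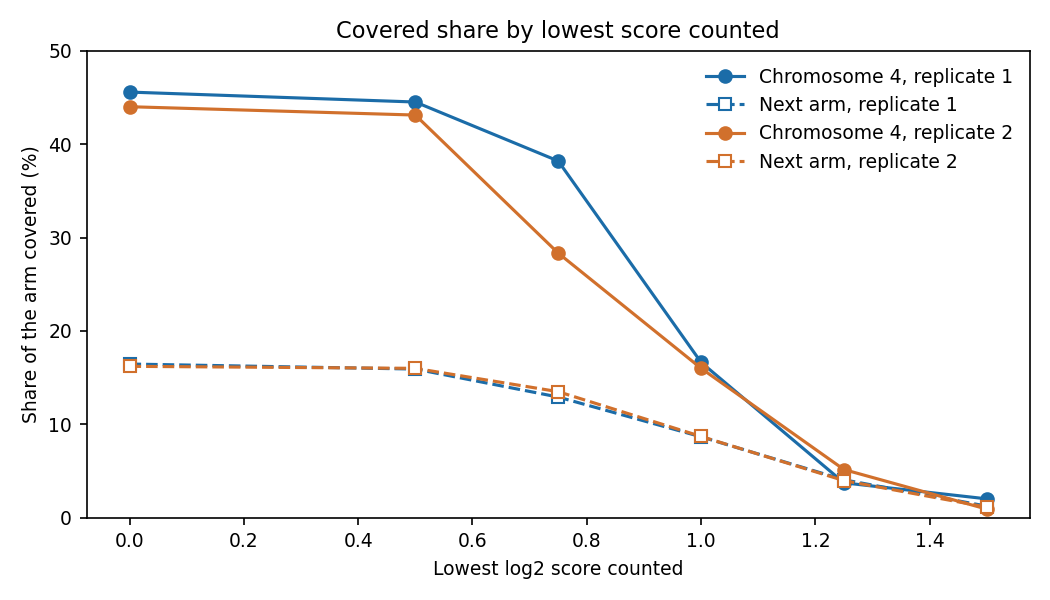
Share of chromosome 4 (filled circles) and of the next most covered main arm (open squares; 2R at a lowest score of 0, X at the others) covered by clusters at or above a given log2 score, in ChIP replicates 1 (blue) and 2 (orange). The curves of chromosome 4 start at 45.6% and 44.0% and come close to those of the next arm at a score of 1.25, below it in replicate 1 (3.75% against 4.07%) and above it in replicate 2 (5.17% against 3.98%).

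Most of the strongest sites of chromosome 4 were narrow, as were most of its clusters. Among the tenth of all clusters with the highest scores in their list were 15 of the 100 of chromosome 4 in replicate 1 and 11 of the 118 in replicate 2. None of the 15 was wide, against 19 of all 100 in replicate 1, while 2 of the 11 were wide, against 12 of all 118 in replicate 2. Wide clusters were thus missing among these highest scores in replicate 1 only. The top site by the combined score (1.75) lay at 999117 to 1002126. Its log2 score was 1.91 in replicate 1, where it ranked 82 of 6560, and 1.79 in replicate 2, where it ranked 65 of 6508 (mean 1.85 ± 0.083, SD over 2 replicates). The next at most 10 kb wide and found in both replicates were 444379 to 448344, 1290033 to 1293716, 1333256 to 1335786 and 109388 to 111804. They scored 1.74, 1.72, 1.46 and 1.70 in replicate 1 and 1.52, 1.41, 1.36 and 0.86 in replicate 2, in that order. The last differed most between the replicates: in replicate 2 it lay below the median of the wide clusters.

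At the distal end, next to the telomere, chromosome 4 had a run of narrow clusters of above-median score in both replicates, and no wide one. The run was singled out after its values were seen. From 1290078 to 1348440 in replicate 1 there were 8 clusters of 2079 to 3620 bp, and each had a single partner among the 8 of replicate 2, which were 1820 to 3586 bp wide. Their midpoints were 4881 to 12829 bp apart in replicate 1 and 4712.5 to 13027.5 bp apart in replicate 2. From the centromere side to the telomere, the 8 scored 1.72, 1.88, 1.78, 1.09, 1.45, 1.44, 1.46 and 1.51 in replicate 1. In the same order they scored 1.41, 1.16, 1.01, 0.91, 1.10, 1.06, 1.36 and 1.22 in replicate 2. Their medians were 1.48 in replicate 1 and 1.13 in replicate 2, against 0.90 and 0.71 for the clusters of the rest of the chromosome. All 8 were above the rest's median in both replicates. Because the run was singled out after its scores were seen, this contrast is a description and not a test. The rest was also not matched to the run in width. The tenth of all clusters with the highest scores began at 1.35 in replicate 1 and 1.27 in replicate 2. All of the 8 but the one at 1.09 reached it in replicate 1. In replicate 2 only those at 1.41 and 1.36 did. The combined list was less even there, with 9 clusters between 0.57 and 1.48. It gave 0.64 to the second site, 1296207 to 1299501, and its lowest, 1340303 to 1341523, overlapped no replicate cluster. The lowest of the 8 in both lists, at 1308677 to 1311115 in replicate 1, scored 1.09 in replicate 1 and 0.91 in replicate 2.

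Scores in the distal run were higher in replicate 1 at all 8 sites, by a mean of 0.39. Over the other 46 pairs of chromosome 4, replicate 1 was higher at 29, by a mean of 0.07. By the mean, the offset also went with width. Among pairs of at most 3 kb in both replicates, the 7 in the distal run differed by a mean of 0.40 and the 14 elsewhere by 0.13, with replicate 1 higher at 7 and 10. Among the 25 pairs above 3 kb in both, the mean was 0.04. The medians were 0.35, 0.04 and 0.03 in that order, so the 14 and the 25 pairs hardly differed by the median. The part of width in the distal difference was not tested. Whether the 2 replicate lists share a scale is not stated, so an offset common to all clusters is not interpreted. On the other arms the mean difference lay between -0.01 on X and 0.08 on 3R. The 3 largest differences on chromosome 4 were at 109351 to 111899 (1.70 in replicate 1 and 0.86 in replicate 2), 1303722 to 1306308 (1.78 and 1.01) and 1296285 to 1298549 (1.88 and 1.16). The last 2 are neighbours in the distal run. Across all 54 pairs the scores of the replicates had a Pearson r of 0.790 and a Spearman rho of 0.840, as a description.

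Most clusters of chromosome 4 had a partner in the other replicate, 93.0% of those of replicate 1 and 91.5% of those of replicate 2. On the other arms these shares were 86.5% to 88.8% in replicate 1 and 87.02% to 91.8% in replicate 2, so chromosome 4 was above all 5 in replicate 1 and within their range in replicate 2. A shared base was enough for a partner, and the denser coverage of chromosome 4 was not allowed for. The 7 clusters of replicate 1 without a partner scored at most 0.74. In replicate 2 there were 10 without one. Of these, the cluster at 931858 to 933207 had the highest score of chromosome 4 in that list, 2.05, which ranked 22 of the 6508 clusters of the list, at a width of 1350 bp. The nearest cluster of replicate 1 began at 933563, and the combined list had both within 1 cluster, 931852 to 942626, with a score of 0.80. In the combined list 70 of the 105 clusters (66.7%) overlapped a cluster in both replicates, a share near the 66.3% of all main arms. All 23 wide clusters were among these 70, and on the other arms all 67 wide clusters likewise had an overlap in both replicates. Another 4 overlapped replicate 1 alone, 6 replicate 2 alone and 25 neither. Those 25 were narrow, with a median of 1266 bp, and low in score, with a median of 0.36. The exception was 816364 to 817384, 1021 bp wide, with a score of 1.43, the fourth highest of chromosome 4 in that list.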

How the data were processed

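Sfmbt ChIP-seq of adult heads gave 3 deposited cluster lists, 1 per ChIP replicate and 1 for the replicate set. Reads were aligned with Bowtie 0.12.7, per the submitters' processing notes, and the file headers name FlyBase release 5 as the genome. The sources used here name no peak caller and no threshold, nor how replicates were merged. The inputs' own signal was not analysed here. The deposited scores are log2 values, which no header states. Taken as powers of 2, score differences equalled a quotient of integers (relative tolerance 1e-11, denominators of at most 20000) for at least 99.49% of clusters of each list. With base e or 10 this share was at most 1.19%. Differences were taken from a reference cluster, the best of a random sample for each list and base. What was counted is not stated, so depth is unknown.

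No cluster was removed. Overlap meant 1 shared bp, wide meant above 10 kb, and the main arms were 4, 2L, 2R, 3L, 3R and X, with lengths from the file headers. A score over several clusters was weighted by length. No test was run: values are given per replicate and as mean and SD. The regions named were all combined clusters above 20 kb, the most divided ones, the 5 strongest narrow clusters in both replicates, the 5 longest stretches uncovered in both, the fullest and emptiest window and the 3 pairs that differed most. Regions named beyond these were chosen after their values were seen. Members, limits and lists were chosen with earlier results of these data known. Interval counts were checked on simulated data. Python 3.11.15, NumPy 2.4.6, pandas 2.3.3 and matplotlib 3.10.9 were used.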

Additional observations from a re-analysis of the deposited data

How the results depend on the processing

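The covered share of chromosome 4 stayed above that of the next arm under the alternatives below, but not in every list with a lowest score of 1.25 or 1.5, where the ratio was 0.92 and 1.63 in replicate 1, 1.30 and 0.81 in replicate 2, and 0.68 and 0.63 in the combined list. Its mean covered share was 32.3% with clusters at or above their list's median score, 47.03% over the span from first to last covered base and 56.1% in the combined list. The ratio to the next arm was 2.55, 2.87 and 2.44 under these settings, and 2.03 with wide clusters and their length left out. The share covered in both replicates was 25.2% with the higher scores, 41.6% over the covered span and 40.8% with gaps of up to 1 kb joined. Joining such gaps left 3 wide clusters split in both replicates and put 63.04% of the covered length in wide clusters. The number of wide clusters split was 16 without replicate 1 and 11 without replicate 2. Wide clusters held 70.2% of the covered length with the limit at 5 kb and 9.21% at 20 kb, where wide clusters scored 0.061 higher than narrow ones. Uncovered stretches numbered 39 from 5 kb and 8 from 20 kb. The causes were not tested. No analysis paired each ChIP with its input, because the inputs' own signal was not analysed. No test was made between groups. Read depth is unknown and limits every score.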
